A study of Mus musculus and Homo sapiens with 10 samples.

Results

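This section describes 10 windows of 1 kb in the human genome (GRCh37) in which DNA break ends piled up in TK6 cells. They are 10 of the 2413748 windows of that size that held a break end in any TK6 library. The windows start at 9827001 on chromosome 21, 33478001 on chromosome 17, 20704001 on chromosome 12, 33963001 on chromosome 16, 133012001 and 230045001 on chromosome 2, 108297001 on chromosome X, 24184001 on chromosome 19, 85195001 on chromosome 11 and 26190001 on chromosome 20. Every position with break ends inside them was taken, and all 10 windows held break ends in all 4 libraries. The windows had been picked with the break ends of these same libraries known. Their levels and their change with etoposide are therefore given as a description, and the fit over all windows further down is given only for the background it supplies.

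Break ends were mapped by in-suspension BLISS, in which double-strand break ends are blunted and joined to an adapter before the DNA is extracted, amplified by in vitro transcription and sequenced. TK6, an established human lymphoblastoid cell line, had received etoposide (2 libraries) or the vehicle DMSO (2 libraries). Dose, time, the number of cells and the origin of the replicates (separate cultures or not) are not stated in the labels, so differences between the libraries of a group may be technical. The series also holds 6 libraries of mouse enterocytes, which were not used here. Break ends numbered 11467827 and 8939870 in the etoposide libraries, and 1081859 and 585021 in the DMSO libraries.

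Etoposide is a topoisomerase II poison: it holds the enzyme on the DNA strands it has cut, so that breaks accumulate where the enzyme acts. Ribosomal DNA, which many of these windows are said to resemble, forms long tandem arrays on the short arms of the acrocentric chromosomes and is transcribed by RNA polymerase I in the nucleolus. Short copies of parts of it are scattered elsewhere in the genome. No human genome sequence or annotation was used here, so neither the likeness to ribosomal DNA, nor the genes at the windows, nor whether reads map to these windows alone was tested. The counts are of break ends that the authors' alignment placed there.

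Together the 10 windows held a much smaller part of the etoposide libraries than of the DMSO libraries, and their part differed widely between libraries of the same treatment. It was 0.149% of etoposide replicate 1 (exact binomial 95% interval 0.147% to 0.151%) and 0.0731% of etoposide replicate 2 (0.0714% to 0.0749%). In DMSO it was 1.22% of replicate 1 (1.197% to 1.239%) and 0.286% of replicate 2 (0.273% to 0.301%). These intervals cover counting error only, and that only if the counts are of molecular identifiers. Whether they are of those or of reads is not stated. The groups did not overlap, with a mean of 0.111% ± 0.0537 after etoposide and 0.752% ± 0.659 in DMSO (SD, n = 2 each). The log2 ratio of the means was -2.76, and it was -1.37 without DMSO replicate 1, the library that stood highest. Within a treatment, replicate 1 had 2.04 times the share of replicate 2 after etoposide and 4.25 times in DMSO.

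The 3 windows on chromosomes 21, 17 and 12 carried most of this. In break ends per 1000000 of the library (EPM), the chromosome 17 window (33478001 to 33479000) had 531 and 234 after etoposide, against 3858 and 967 in DMSO. The chromosome 12 window (20704001 to 20705000) had 259 and 132 after etoposide, against 3804 and 942 in DMSO. In both windows the lower DMSO library lay above the higher etoposide library. The chromosome 21 window (9827001 to 9828000) had 499 and 271 EPM after etoposide, against 2066 and 484 in DMSO. Here the groups overlapped, because DMSO replicate 2 lay just below etoposide replicate 1. These windows held the first 3 ranks among all 1 kb windows of every library.

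A second tier of 3 windows lay lower in every library. The chromosome 16 window (33963001 to 33964000) had 59.0 and 27.5 EPM after etoposide, against 862 and 147 in DMSO. The first window of chromosome 2 (133012001 to 133013000) had 40.4 and 20.8 EPM after etoposide, against 604 and 125 in DMSO. Its second window (230045001 to 230046000) had 50.8 and 22.3 EPM after etoposide, against 510.2 and 92.3 in DMSO. In each of the 3 windows the treatments were apart, and replicate 1 stood above replicate 2 in both treatments. By the mean of the DMSO libraries these windows ranked 4, 5 and 6, and by the mean of the etoposide libraries 6, 13 and 8.

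The remaining 4 windows ranked far higher in DMSO than after etoposide by mean share. The chromosome X window (108297001 to 108298000) had 14.0 and 5.03 EPM after etoposide, against 130.3 and 35.9 in DMSO. The chromosome 19 window (24184001 to 24185000) had 6.02 and 3.02 EPM after etoposide, against 104 and 25.6 in DMSO. By mean share these windows ranked 1890 and 16610 after etoposide, against 14 and 18 in DMSO. The chromosome 11 window (85195001 to 85196000) had 18.6 and 5.37 EPM after etoposide, against 196 and 23.9 in DMSO. The chromosome 20 window (26190001 to 26191000) had 12.1 and 10.7 EPM after etoposide, against 44.4 and 22.2 in DMSO. By mean share they ranked 783 and 933 after etoposide, against 9 and 29 in DMSO. In single libraries the ranks of these windows overlapped between treatments. On chromosome 11 they were 28 and 19655 after etoposide, against 8 and 133 in DMSO. On chromosome 20 they were 127 and 2945, against 24 and 175. The chromosome 11 window varied most within a treatment, with a factor of 3.46 between the etoposide libraries and 8.19 between the DMSO libraries, and the chromosome 20 window varied least, with 1.13 and 1.997.

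**Figure D1:**
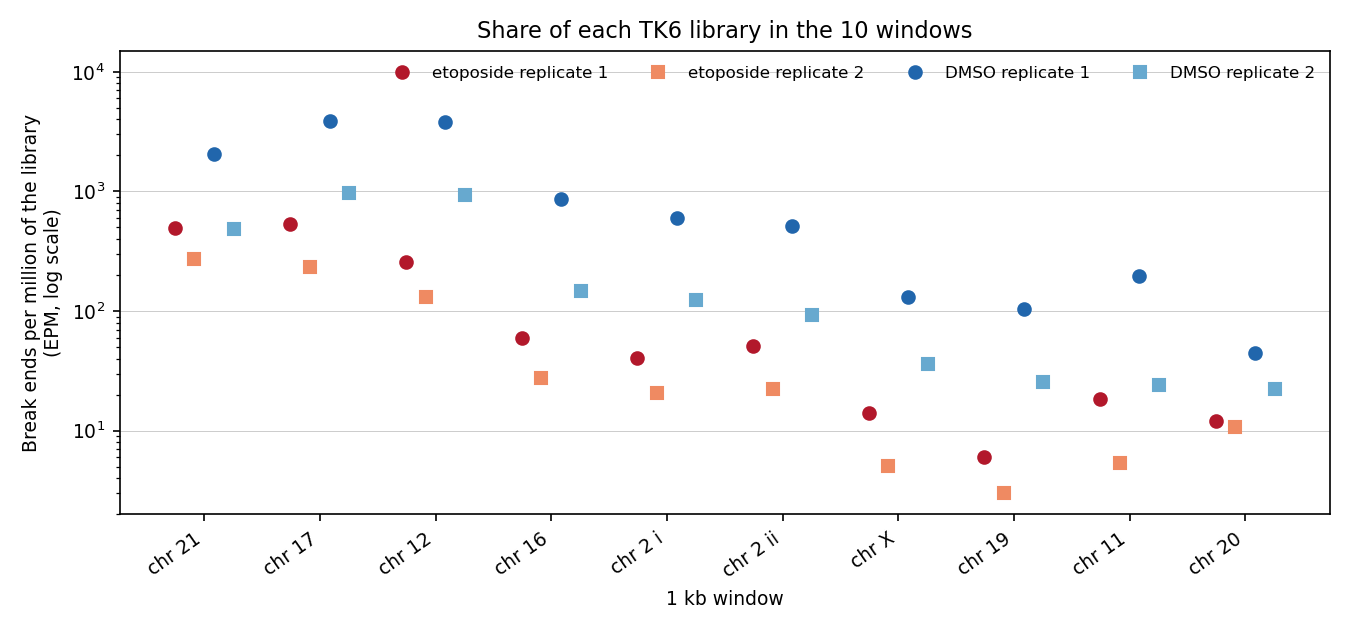
Share of the library (EPM, log axis) in each of the 10 windows; points are single libraries, the 2 etoposide libraries (red and orange) left of the 2 DMSO libraries (blue), and chr 2 i and ii are the first and second window of chromosome 2. In 9 windows both etoposide points lie below both DMSO points, and on chromosome 21 DMSO replicate 2 (484) lies just below etoposide replicate 1 (499).

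Both etoposide libraries were below both DMSO libraries in 9 of the 10 windows. Of all 82933 windows with enough break ends to be tested, 9.67% did the same; since the windows were picked with this contrast known, nothing is read from the count. By the same EPM means, the log2 ratio of etoposide over DMSO ran from -3.84 on chromosome 19 and -3.60 on chromosome 12 to -1.73 on chromosome 21 and -1.54 on chromosome 20. In an edgeR quasi-likelihood fit over the 82933 windows, all 10 members passed the count filter, and their log2 fold changes lay between -3.69 and -1.38 with a median of -3.04. The fitted change on chromosome 21 was -1.56, but -0.32 without DMSO replicate 1 and -2.93 with each position counted once; on chromosome 20 it was -1.38 and, with each position counted once, -2.38. The median over all tested windows was 0.37 and the 1st percentile -1.77. The standard errors of the members were 1.19 to 4.67, and for the leading 3 windows they exceeded the change itself.

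That fit called no window at a Benjamini-Hochberg adjusted p under 0.05 (0.00% lower and 0.00% higher), while 1148 of 82933 had an unadjusted p under 0.05. DESeq2 called 21, all lower and none of them a member. On simulated counts the edgeR test found only 1 of 50 windows changed 8-fold and 0 of 50 changed 4-fold. For windows drawn from all those tested, with the common dispersion, it thus had almost no power. Whether this holds for the members, several of which hold far more break ends, was not tested.

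Unscaled, the windows together held more break ends after etoposide, but by far less than the libraries had grown. In all 10 together there were 17088 and 6538 break ends in the etoposide libraries, against 13175 and 1676 in the DMSO libraries. Set against the DMSO library of the same replicate number, this was 1.297 times (number 1) and 3.90 times (number 2), where the rest of the library was 10.7 and 15.3 times as large. Whether equal numbers stand for paired cultures is not stated. Outside the leading 3 windows the factors were 0.869 and 3.07.

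Single windows ranged more widely. The chromosome 12 window had 2971 and 1181 break ends after etoposide, against 4115 and 551 in DMSO, which is 0.722 and 2.14 times. The chromosome 17 window had 6091 and 2088 after etoposide, against 4174 and 566 in DMSO, or 1.46 and 3.69 times. The chromosome 21 and 20 windows came closest to the growth of the libraries. The chromosome 21 window had 5722 and 2422 break ends after etoposide, against 2235 and 283 in DMSO (2.56 and 8.56 times). The chromosome 20 window had 139 and 96, against 48 and 13 (2.90 and 7.38 times). The lowest factors, 0.616 and 1.80, were those of the chromosome 19 window, with 69 and 27 break ends after etoposide, against 112 and 15 in DMSO.

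**Figure D2:**
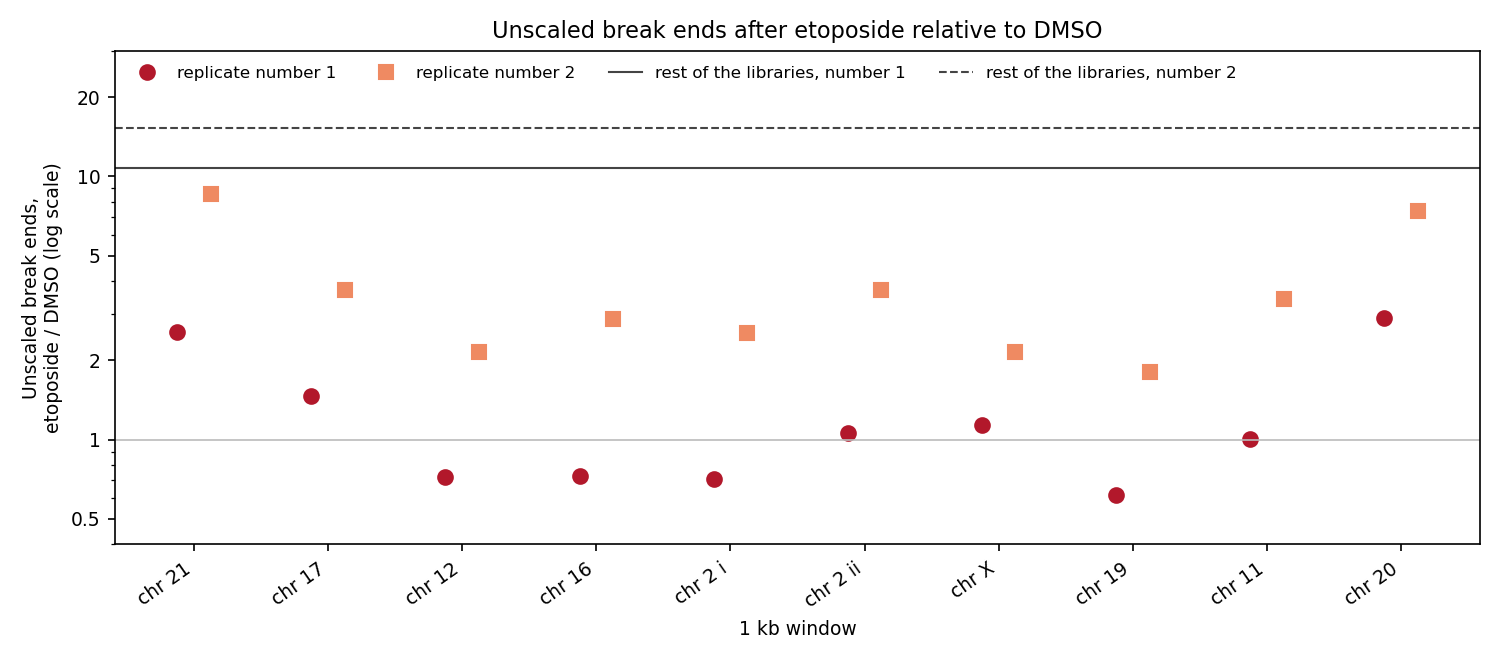
Unscaled break ends of each window after etoposide divided by those in the DMSO library of the same replicate number (log axis); circles are number 1, squares number 2, and the dark lines give the same factor for the rest of the libraries (10.7, solid, and 15.3, dashed). All 20 points lie below the line of their own number, and those of chromosomes 21 and 20 lie highest.

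The makeup of the piled-up break ends differed between the treatments by more than between replicates for the chromosome 21 and 12 windows. Of the break ends in the 10 windows, the chromosome 21 window held 33.5% and 37.0% after etoposide, against 16.96% and 16.89% in DMSO. The chromosome 12 window held 17.4% and 18.1% after etoposide, against 31.2% and 32.9% in DMSO. The first window of chromosome 2 held 2.71% and 2.84% after etoposide, against 4.96% and 4.36% in DMSO. For the chromosome 19 window it was 0.404% and 0.413%, against 0.850% and 0.895%. The chromosome 17 window held 35.6% and 31.9% after etoposide, against 31.7% and 33.8% in DMSO, with the groups overlapping. So replicates that differed several-fold in the total differed little in the proportions of the leading windows. The order of the windows was largely but not wholly the same, with Spearman's rho of 0.842 to 0.964 between libraries: chromosome 21 ranked above chromosome 12 after etoposide and below it in DMSO. Across the 10 windows, the log2 EPM of 2 libraries correlated with a Pearson r of 0.984 for the etoposide pair, 0.972 for the DMSO pair and 0.898 to 0.957 across treatments, as a description of windows picked from these libraries.

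Some windows outside the set had as many break ends as members. By the etoposide mean the highest 3 outside windows ranked 4, 5 and 7 of all windows, above several members. They were on chromosome 6 from 58778001 (58.3 ± 40.2 EPM after etoposide and 77.1 ± 41.3 in DMSO), chromosome 17 from 41466001 (49.5 ± 18.3 and 22.5 ± 4.405) and chromosome 20 from 34542001 (36.9 ± 16.7 and 32.1 ± 27.1; SD, n = 2 each). In none of these were both etoposide libraries below both DMSO libraries. By the DMSO mean the highest 3 outside windows ranked 7, 8 and 10, above the X, 19 and 20 members, and all lay on chromosome 1, in a stretch known to hold a nuclear copy of mitochondrial DNA. They started at 565001 (23.9 ± 10.4 EPM after etoposide and 191 ± 99.2 in DMSO), 569001 (11.5 ± 2.77 and 121 ± 26.2) and 566001 (10.9 ± 3.08 and 106 ± 17.2). In these both etoposide libraries were below both DMSO libraries, as in 9 of the members.

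Break ends were far denser inside the windows than on average in the windows around them. On chromosome 21, however, the windows starting 20 to 3 kb before the member held no break end in any library. Whether reads map there was not tested, and the values below count these empty windows. Of the break ends within 20 kb on either side, a median over the 10 windows of 78.8% and 71.9% lay inside the 1 kb window in the etoposide libraries, against 96.7% and 86.6% in the DMSO libraries. Around the chromosome 12 window the neighbouring 40 windows held 78 and 20 break ends after etoposide, against 4 and 3 in DMSO, beside the 2971, 1181, 4115 and 551 inside it. Around the chromosome X window they held 29 and 12 after etoposide, against 2 and 0 in DMSO. The flanks of some windows were alike with both treatments and those of others were not. Relative to the library, the 40 windows around the chromosome 12 member averaged 0.113 ± 0.0807 EPM after etoposide and 0.110 ± 0.0253 in DMSO, and those around the chromosome 17 member 0.915 ± 0.185 and 0.751 ± 0.147 (SD, n = 2 each). Around the first window of chromosome 2 the flanks were higher in both etoposide libraries, with 1.47 ± 0.201 EPM after etoposide and 0.971 ± 0.197 in DMSO. Around the chromosome 21 window they were lower in both etoposide libraries (0.449 ± 0.0496 EPM after etoposide and 1.19 ± 0.537 in DMSO). The same held around the chromosome 20 window (0.163 ± 0.0251 and 0.612 ± 0.442) and the chromosome 19 window (0.182 ± 0.00762 and 0.488 ± 0.388). In these windows the adjoining kilobase described next is part of the flank. In DMSO replicate 2 it held 14 of the 19 flank break ends on chromosome 21, 5 of 7 on chromosome 20 and 2 of 5 on chromosome 19. The order of the treatments there rests on few break ends and partly on this kilobase. Flanks were also lower in both etoposide libraries around the chromosome 16 window (0.834 ± 0.146 and 1.02 ± 0.00625) and the second window of chromosome 2 (0.158 ± 0.0572 and 0.308 ± 0.109). The last of these means rests on 10 and 9 break ends in the DMSO libraries. Over all 10 windows the flanks summed to 171 and 187 EPM after etoposide, against 252 and 197 in DMSO.

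Some pile-ups crossed the edge of their window. The kilobase before the chromosome 20 window held 61 and 43 break ends after etoposide, against 32 and 5 in DMSO. The kilobase after the chromosome 19 window held 16 and 20 after etoposide, against 23 and 2 in DMSO. The kilobase before the chromosome 21 window held 111 and 89 after etoposide, against 50 and 14 in DMSO. Adding 1 kb on each side left the log2 ratio of the summed shares at -2.74.

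Inside the windows the break ends lay on few bases. On chromosome 17 the central 90% of break ends, between their 5th and 95th percentile by position, spanned 8 bases in both etoposide libraries, against 8 and 6 bases in the DMSO libraries. The 10 bases from 33478270 to 33478279 held 96.1% and 96.2% of the window's break ends after etoposide, against 95.3% and 97.2% in DMSO. On chromosome 12 the central 90% spanned 77 and 80 bases after etoposide, against 79 and 78 in DMSO. In the second window of chromosome 2 it spanned 100 and 99 bases after etoposide, against 98 and 98 in DMSO. In these 3 windows the width was nearly the same in every library.

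Other windows held several separate clusters. The chromosome 16 window had its central 90% over 565 and 553 bases after etoposide, against 558 and 456 in DMSO, and the chromosome 19 window over 862 and 866, against 865 and 861. On chromosome 19 this width comes from 3 groups of positions with almost no break ends between them. On chromosome 21 the break ends were less spread after etoposide, with 306 and 309 bases against 436 and 462 in DMSO. The chromosome 20 window also had narrower values after etoposide, 151 and 171 bases, against 216 and 456 in DMSO, where the last value rests on 13 break ends.

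**Figure D3:**
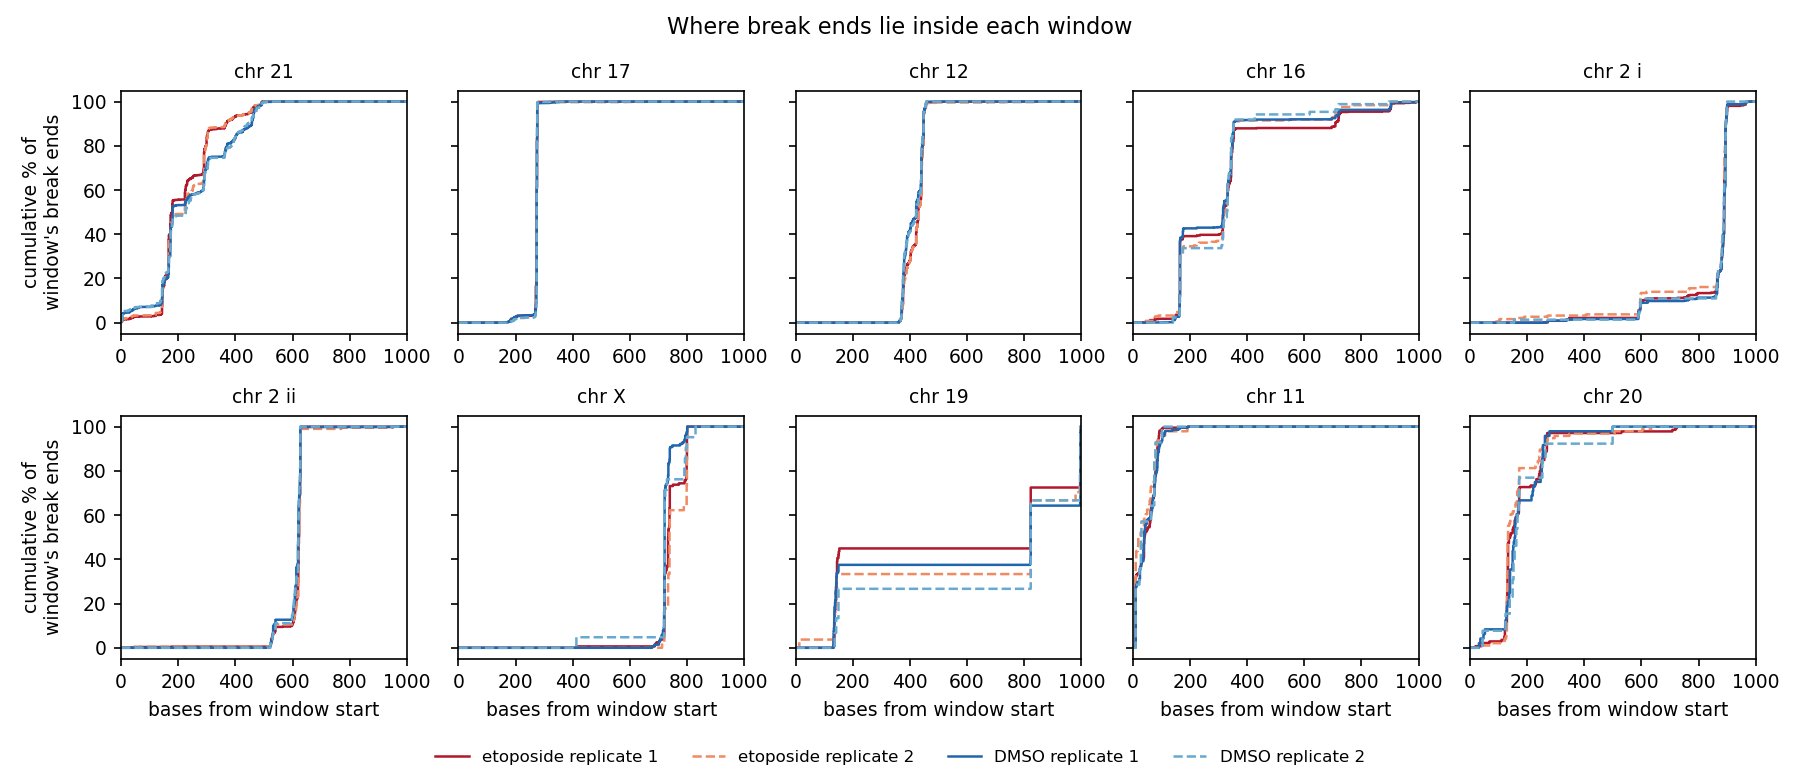
Cumulative percentage of each window's break ends along its 1000 bases, 1 line per library (etoposide red and orange, DMSO blue, replicate 2 dashed). The lines rise in 1 narrow step on chromosome 17 and in 3 steps on chromosome 19 in all libraries, those of chromosomes X and 20 differ more between libraries, and on chromosome 21 the 2 etoposide lines run apart from the 2 DMSO lines.

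These were among the most heavily used bases of the whole genome. Of the 20 positions with most break ends in a library, 20 and 15 lay in the 10 windows in the etoposide libraries, against 19 and 20 in the DMSO libraries. Of the positions with at least 50 break ends, 51 of 60 and 21 of 35 lay there after etoposide, against 46 of 47 and 5 of 5 in DMSO. The highest single base of every library was 33478275 on chromosome 17. It had 2473 and 1037 break ends after etoposide, against 1946 and 354 in DMSO.

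The share of a window on its leading base was compared with that in other windows holding at least 100 break ends. In etoposide replicate 1 it had a median of 17.7% over 9 members and 7.47% over 700 other windows, of which 45 lay above the median of the members. In etoposide replicate 2 the medians were 17.4% (6 members) and 7.69% (2670 other windows, 163 of them above). In DMSO replicate 1 they were 24.9% (9 members) and 4.69% (9 other windows, 1 above). In DMSO replicate 2 no other window held 100 break ends. A base with many break ends raises both this share and the count of its window, so this is a description of windows picked with their counts known.

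In 4 windows the same base led in all 4 libraries: 33478275 on chromosome 17, 33963166 on chromosome 16, 230045628 in the second window of chromosome 2 and 85195011 on chromosome 11. The base on chromosome 17 took 40.6% and 49.7% of the window's break ends after etoposide, against 46.6% and 62.5% in DMSO. The base on chromosome 16 took 24.7% and 18.7% after etoposide, against 24.9% and 18.6% in DMSO. The base on chromosome 11 took 31.0% and 39.6% after etoposide, against 26.9% and 28.6% in DMSO, the last being 4 of 14 break ends. On chromosomes 17 and 16 the treatments overlapped. The base on chromosome 2 took 24.2% and 30.7% after etoposide, against 22.1% and 18.5% in DMSO, so it and the base on chromosome 11 were higher in both etoposide libraries, with binomial intervals that overlapped between treatments. On chromosome 12 base 20704441 led in 3 libraries and 20704449 in etoposide replicate 2. Base 20704449 took 13.7% and 14.1% of the window after etoposide, against 9.79% and 9.98% in DMSO.

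On chromosome 21 the leading base differed with treatment. There base 9827167 led after etoposide, with 822 and 308 break ends or 14.4% and 12.7% of the window, against 56 and 5 or 2.51% and 1.77% in DMSO. Base 9827174, 7 bases on, led in DMSO, where it took 8.72% and 7.07%, against 3.91% and 3.47% after etoposide. The exact binomial 95% intervals of the first base, 13.5% to 15.3% and 11.4% to 14.1% after etoposide, did not touch those in DMSO, 1.90% to 3.24% and 0.576% to 4.07%. Such intervals leave out the variation between libraries. The base was also named because it led after etoposide, so the gap is a description. Unscaled, the second base had 224 and 84 break ends after etoposide, against 195 and 20 in DMSO.

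In the first window of chromosome 2 and that of chromosome X, 1 base led in 3 libraries and another in etoposide replicate 2 alone. Base 133012891 on chromosome 2 took 16.8% and 16.1% of its window after etoposide, against 3.52% and 2.74% in DMSO. Base 133012895, 4 bases further, took 17.7% and 9.14% after etoposide, against 24.7% and 17.8% in DMSO. On chromosome X base 108297723 took 15.6% and 4.44% of the window after etoposide, against 38.3% and 42.9% in DMSO, while base 108297801 took 10.6% and 24.4%, against 0.709% and 4.76%. The last of these rest on 17 and 11 break ends after etoposide, against 1 and 1 in DMSO. In both windows the treatments were apart at each of these bases, at 133012895 by no more than the step between 17.7% in etoposide replicate 1 and 17.8% in DMSO replicate 2. At that base and at both bases of chromosome X, the binomial intervals of these 2 libraries overlapped. The 4.44% at 108297723 is 2 break ends.

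**Figure D4:**
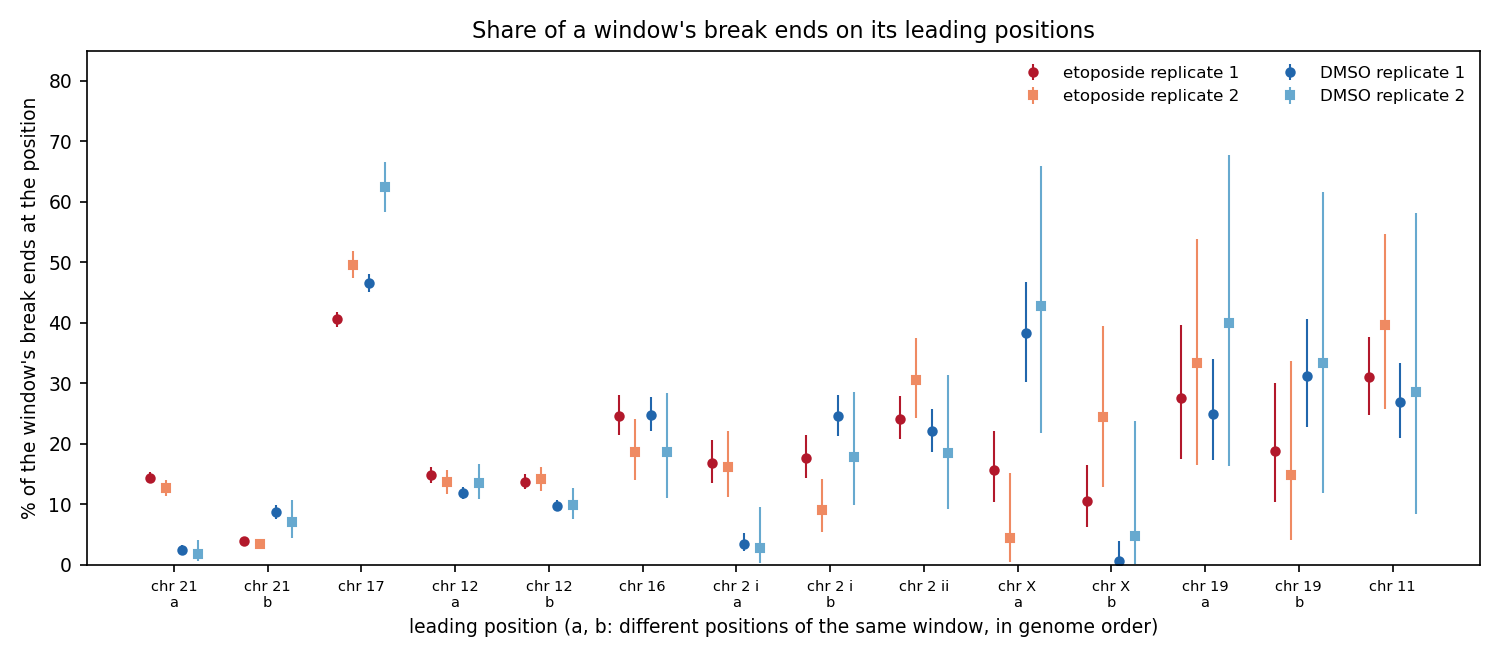
Percentage of a window's break ends on the bases that lead in at least 1 library, for 9 windows (a and b are different bases of a window in genome order; chromosome 20 is left out, where 13 bases tie with 1 break end each in DMSO replicate 2); points are libraries, etoposide left of DMSO, with exact binomial 95% intervals. The first base of chromosome 21 stands at 14.4% and 12.7% after etoposide and at 2.51% and 1.77% in DMSO, while the base of chromosome 16 lies between 18.6% and 24.9% in all 4 libraries.

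Some bases that led in no library also took a larger part of their window after etoposide, and others a smaller part. The following were chosen after their values were seen. On chromosome 17 base 33478272, 3 bases before the leading one, took 10.2% and 7.18% of the window after etoposide, against 2.95% and 2.47% in DMSO. On chromosome 12 base 20704430 took 5.15% and 4.91% after etoposide, against 1.68% and 1.996% in DMSO. In the second window of chromosome 2 base 230045624 took 14.6% and 9.55% after etoposide, against 2.36% and 5.56% in DMSO, which are 13 and 3 break ends. On chromosome 21 base 9827291 took 7.22% and 8.79% after etoposide, against 2.42% and 1.06% in DMSO. In the other direction, base 33478274 on chromosome 17 took 3.19% and 1.96% after etoposide, against 5.94% and 4.06% in DMSO. Base 20704372 on chromosome 12 took 2.09% and 1.86% after etoposide, against 4.18% and 3.63% in DMSO.

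Relative to the whole library, however, few bases of the windows were higher after etoposide. Of 223 bases in the 10 windows with at least 20 break ends over the 4 libraries, 152 had a lower share in both etoposide than in both DMSO libraries, 5 had a higher one, and 66 overlapped. Over all 2608 such bases of the genome, these included, the figures were 7.48% lower and 49.0% higher, and over the 2385 others 1.80% and 53.4%. The cut was on unscaled counts, and the etoposide libraries are much deeper. A base can thus pass it through etoposide alone, which favours a higher share after etoposide. The figures of the other bases are therefore no neutral background for the members. The members' bases were picked with their windows, so this describes them and tests nothing, and at these counts a DMSO library often holds 0 or 1 break end. The lower bases were 58 of 66 on chromosome 12, 16 of 19 on chromosome 16, 43 of 80 on chromosome 21 and 7 of 14 on chromosome 17. They were 14 of 18 in the first and 8 of 12 in the second window of chromosome 2, 2 of 6 on chromosome X, 2 of 2 on chromosome 19, 2 of 3 on chromosome 11 and 0 of 3 on chromosome 20.

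The 5 higher bases were 3 on chromosome 20 and 2 on chromosome 21. All 5 passed the cut of 20 break ends through the etoposide libraries alone. Their low counts in DMSO thus partly follow from how they were picked, and nothing is read from them. On chromosome 20 base 26190130 had 13 and 16 break ends after etoposide, against 1 and 0 in DMSO. Bases 26190132 and 26190134 had 11 and 13, and 15 and 6, after etoposide, and 0 in both DMSO libraries. On chromosome 21 base 9827156 had 62 and 25 after etoposide, against 1 and 0 in DMSO, and base 9827253 had 14 and 13, against 0 and 0. In the chromosome 20 window the 10 bases from 26190125 held 38.8% and 51.0% of the break ends after etoposide, against 10.4% and 7.69% in DMSO, 5 and 1 break ends. This stretch was picked as the densest with all libraries pooled. Most of the pooled break ends of the window came from the etoposide libraries, so nothing is read from these shares either.

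Positional profiles of a window were compared between libraries over its 1000 bases. Pearson's r had a median over the 10 windows of 0.947 between the etoposide libraries, 0.915 between the DMSO libraries and 0.836 across treatments; bases of a window are not independent, and deeper libraries give higher values. On chromosome 17 r was 0.988 between the etoposide libraries, 0.974 between the DMSO libraries and 0.940 to 0.993 across treatments. By r, treatment thus did not set these profiles apart. The leading base weighs most in this r, and smaller bases such as 33478272 did differ, as given above. On chromosome 21 r was 0.980 and 0.881 within treatments and 0.555 to 0.645 across them. On chromosome 12 it was 0.990 and 0.985 within and 0.930 to 0.948 across. Profiles of the same treatment were more alike than any across treatments in 5 of 10 windows: chromosomes 21, 12 and X and both windows of chromosome 2. With every library reduced to the lowest count of the window it was these 5 and the chromosome 20 window, where that count is 13.

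How many bases carried a window was compared at equal numbers of break ends, as a description, since the windows were picked from the same counts. The effective number of bases (the inverse of the summed squared shares) averaged 10.4 and 10.6 over the 10 windows after etoposide, against 12.3 and 14.1 in DMSO. The difference was -2.72; a permutation of 2 against 2 libraries cannot give a p below 0.333, so no call was possible. The chromosome 21 window had 22.4 and 24.6 after etoposide, against 38.4 and 54.4 in DMSO, and without it the difference was -0.48. Both etoposide libraries were below both DMSO libraries in 4 windows and above them in 2. For the number of different bases used, at equal numbers of break ends, they were below in 3 and above in 3. For the share of the leading base they were below in 2 and above in 5. The same was not counted over all windows, so nothing is read from these counts. The share of the leading base averaged 22.1% and 25.6% after etoposide, against 24.6% and 25.7% in DMSO, a difference of -1.28 percentage points, which was 0.45 without etoposide replicate 1.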

How the data were processed

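The authors deposited, for each library alone, a list of single bases, each with its count of break ends; values are raw and carry no strand. Reads were aligned with BWA to GRCh37, per the submitters' processing notes; its version, quality filters and the handling of duplicates or multiply mapping reads are not given in the sources used. The etoposide files list 7001 and 10322 positions again and the DMSO files 26 and 2 (13, 3, 15 and 0 in the windows); their counts were added up. Counts were summed over 1 kb windows. EPM are counts per 1000000 of the unscaled library. Windows were tested with edgeR 4.0.16 (R 4.3.3; filterByExpr, quasi-likelihood F test, TMM factors from 100 kb bins, Benjamini-Hochberg over all tested windows) and DESeq2 1.42.0, and the edgeR test was tested on simulated counts. For equal numbers, break ends of a window were drawn 200 times. Tables were built in pandas 2.3.3 and numpy 2.4.6 under Python 3.11.15, intervals and exact tests in scipy 1.17.1, and plots in matplotlib 3.10.9. Named bases are those leading in a library, those higher in both etoposide libraries, and some chosen after their values were seen; outside windows are the highest 3 non-members by mean share of each treatment. The windows and measures were chosen with earlier results of these data known.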

Additional observations from a re-analysis of the deposited data

How the results depend on the processing

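With 2 libraries a group, DMSO replicate 1 set the size of most values. The log2 ratio of the summed shares was -2.76; with single libraries left out it ran from -3.45 to -1.37 (without DMSO replicate 1), and under 7 other settings from -3.11 to -2.60. The median log2 fold change of the 10 windows was -3.04 and ran from -3.73 to -1.56 with single libraries left out, the smallest change again without DMSO replicate 1. All 10 were negative in every one of the 11 fits. The number of windows with both etoposide libraries below both DMSO libraries was 9, and 8 to 10 under 4 other settings. The edgeR count of called 1 kb windows was 0, but 4 (all lower) scaled by library size without TMM, 21 with DESeq2, and 0 to 6 with single libraries left out (1 without DMSO replicate 1 and 6 without DMSO replicate 2, all of them members, with the lone library assumed to vary like the other group). With the replicate number as a block it was 42, of which 1 was higher and 41 lower; 4 of these were members, and nothing is read from such counts of windows picked on these libraries. Libraries of the same number deviated together over 100 kb bins (r = 0.514), but 2 pairs do not show that the numbers mark pairs. The effective number of bases differed by -2.72, and by -3.58 to -1.86 with single libraries left out. That in the share of the leading base was -1.28 percentage points and ran from -3.02 to 0.45 (without etoposide replicate 1, where it reversed). The median r between profiles over all pairs of libraries and windows was 0.88, 0.96 in bins of 10 bases and 0.78 with equal counts, and the median overlap of shares was 0.63. Equal counts, and the effective number without the chromosome 21 window, were chosen after seeing the data. No more than 13 break ends in the smallest window of DMSO replicate 2 limit what its positions can show.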
